A study of Homo sapiens with 24 samples.

Results

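The regions described here were listed as enriched for H3K27Ac over input in MCF10A cells with ANCO1 knocked down and were not listed in any other condition of the study. They were chosen by row presence: a region of the 10A shANCO1 table against input was kept when it shared no base with any region of the tables against input of 10A shCTRL, DCIS shANCO1 or DCIS shCTRL. Of 28607 regions of 10A shANCO1, 11621 (40.6%) met this rule and are called knockdown-only regions below. A place is called marked in a condition when the table of that condition against input lists a region there. MCF10A (10A) is an immortalised, non-tumorigenic human mammary epithelial line, and MCFDCIS (DCIS) is a related line that forms lesions like ductal carcinoma in situ. In each line, cells received a lentiviral shRNA against ANCO1 (ANKRD11) or a control shRNA, and each of the resulting 4 conditions had 3 H3K27Ac libraries and 3 input libraries, 24 in all. The control is named shCTRL in the sample labels and shGFP in the names of the deposited tables, and both were taken to mean the same control. Both lines were grown in the same medium with epidermal growth factor, hydrocortisone, insulin, cholera toxin and horse serum, so the controls carried these agents too. The deposited tables hold 1 row per region for a whole group, with no value for a single library, so no spread between replicates could be computed and all log2 fold changes and false discovery rates (FDRs) below are the values deposited. Read depth per library is unknown. A knockdown from a viral shRNA leaves residual protein, and no label says whether the 3 libraries of a group came from separate cultures.

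H3K27Ac is acetylation of lysine 27 on histone H3, laid down by the acetyltransferases CREBBP and EP300 and removed by histone deacetylases. It marks active promoters and enhancers, where it flanks the nucleosome-free stretch on which transcription factors sit. ANCO1 is a nuclear ankyrin-repeat protein that binds p160 coactivators and recruits histone deacetylases. AP-1, the dimer of FOS and JUN family proteins, and TEAD, the DNA-binding partner of YAP1, are known as enhancer factors in mammary epithelial lines.

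The sequences below are shown before the values as examples of AP-1 matches, in a gap between marked stretches and in the middle of a wide one. The CYP27C1 gap is the 300 bp at chr2:127218001-127218300, in an intron of CYP27C1 between 2 knockdown-only regions. The chromosome 6 sequence is the middle of a wide region outside protein-coding genes, chr6:48766550-48766749, and the IL1R1 sequence is the middle of an intronic region, chr2:102082300-102082499. The CXCL8 promoter is the stretch of 250 bases before the RefSeq start of CXCL8 (GRCh38.p14, chr4:73740319-73740568). All are plus strand of GRCh38 (hg38), and capitals mark AP-1 matches (TGACTCA or TGAGTCA), except in the IL1R1 middle, where they mark a TEAD match (ACATTCC or GCATTCC). Matches were sought on both strands.
CYP27C1 gap: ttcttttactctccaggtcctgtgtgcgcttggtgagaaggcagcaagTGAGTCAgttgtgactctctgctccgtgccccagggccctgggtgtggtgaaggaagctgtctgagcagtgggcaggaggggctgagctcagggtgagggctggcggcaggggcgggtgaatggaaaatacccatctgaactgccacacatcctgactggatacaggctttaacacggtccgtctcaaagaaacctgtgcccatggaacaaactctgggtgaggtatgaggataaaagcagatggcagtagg
Chromosome 6 middle: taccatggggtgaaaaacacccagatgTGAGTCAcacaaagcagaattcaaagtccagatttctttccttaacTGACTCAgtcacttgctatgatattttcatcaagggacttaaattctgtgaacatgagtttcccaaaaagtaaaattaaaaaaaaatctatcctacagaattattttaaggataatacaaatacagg
IL1R1 middle: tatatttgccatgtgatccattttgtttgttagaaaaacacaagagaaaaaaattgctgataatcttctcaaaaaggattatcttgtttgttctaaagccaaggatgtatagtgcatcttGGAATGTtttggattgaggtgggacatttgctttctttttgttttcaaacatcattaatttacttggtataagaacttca
CXCL8 promoter: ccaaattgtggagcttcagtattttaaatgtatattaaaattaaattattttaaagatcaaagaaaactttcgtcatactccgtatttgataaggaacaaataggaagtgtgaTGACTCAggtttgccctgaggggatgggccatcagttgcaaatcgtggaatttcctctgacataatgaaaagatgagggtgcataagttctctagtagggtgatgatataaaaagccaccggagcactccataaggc

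The CYP27C1 gap was flanked by regions with log2 fold changes over input of 4.19 and 4.20, and its AP-1 match began at base 49 of the stretch. It was picked after the values had been seen, by low FDRs on both sides, from gaps of 300 bp outside chromosome 8 with a knockdown-only region of at least 5 tested windows on each side. There were 39 of these, and 12 held a match and no exon. The chromosome 6 region was 1900 bp wide (48765701 to 48767600), had a log2 fold change over input of 7.99, and held 2 matches, at bases 28 and 74. It and the IL1R1 region were those of lowest FDR, under the same limits, whose middle 200 bp held a match and no exon. A match in these middles was therefore fixed in advance. In the CXCL8 promoter the single match began 137 bases before the RefSeq start, and 4.2% of all RefSeq promoters of this length held an AP-1 match. The knockdown-only region at CXCL8 lay downstream of this stretch, from 73740701 to 73742700. CXCL8 was picked by a low FDR of a region at a TSS. The promoters of ITGB5 and ZEB1, picked by the same rule and not shown, held no AP-1 match. The ITGB5 stretch (chr3:124901419-124901668) was not at its knockdown-only region (124886201 to 124887100), which lay at another TSS of the gene.

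The knockdown-only regions were narrow and many. Together they covered 5.28 Mb of the 25.3 Mb in 10A shANCO1 regions (20.9%). Their median width was 400 bp, against 900 bp for the other 16986 regions of 10A shANCO1. A single window of 200 bp made up 26.4% of them (95% Wilson interval 25.6 to 27.3%), and 7.37% reached 1000 bp (6.91 to 7.86%), against 5.17% and 47.8% of the other regions. These intervals cover counting error only, and regions are not independent of one another. The median log2 fold change over input was 3.24, against 3.49 in the other regions, and ran from 1.97 to 8.06. The median FDR over input was 5.31e-11, against 1.9e-14. The rule used these tables, so the values describe the regions and test nothing.

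Of the 16986 regions that did not meet the rule, 11933 overlapped a 10A shCTRL region. The remaining 5053 overlapped a DCIS region but no 10A shCTRL region: 1579 with DCIS shANCO1 only, 739 with DCIS shCTRL only and 2735 with both. The 10A shCTRL table was shorter than the 10A shANCO1 table, at 15490 regions, and the DCIS tables held 16692 (shANCO1) and 15482 (shCTRL). Absence from a table means that a region did not pass the detection limit there, not that H3K27Ac was absent. The nearest region of any of these 3 tables lay at a median of 12301 bp. It was within 1 kb for 2717 knockdown-only regions, from 1 to 10 kb for 2720, from 10 to 50 kb for 3233 and farther than 50 kb for 2951. At the boundary of the rule, 896 knockdown-only regions lay within 301 bp of a region of another table and had a median log2 fold change over input of 3.14, and 358 regions just outside the rule shared 100 bp with one and had a median of 3.11.

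The direct comparison of shANCO1 with shCTRL in 10A asked whether the mark itself was higher at these places. It uses the same H3K27Ac libraries as the rule, so its values are a description. A region of this direct table overlapped 11618 of the 11621. Of these, 8340 (71.8%) were called up at FDR under 0.05, 5 were called down, and 3273 (28.2%) were not called. Over all 50284 regions of the direct table, 43.6% were called up and 0.225% down. Among the other 10A shANCO1 regions, 66.6% were up, 65.6% of those also marked in 10A shCTRL and 69.0% of those also marked in DCIS only. The median log2 fold change was 1.00 at knockdown-only regions, 0.84 at the other 10A shANCO1 regions and 0.76 over the whole direct table. A gain at a log2 fold change of at least 1 was called for 48.4% of the knockdown-only regions and 28.2% of the others. The direct regions were wider (median 1700 bp), so 11618 rested on 10069 different direct regions, 1421 of which stood for 2 or more. At the 8340 called up, the median share of windows up in the direct region was 63.0%. Every window was up at 994, and at 2801 the windows up were fewer than the rest. A call therefore need not come from the knockdown-only region itself. Direct regions that also overlapped a region of another table numbered 2779 and were up in 71.4%, and those that overlapped none numbered 7290 and were up in 69.7%.

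**Figure D1:**
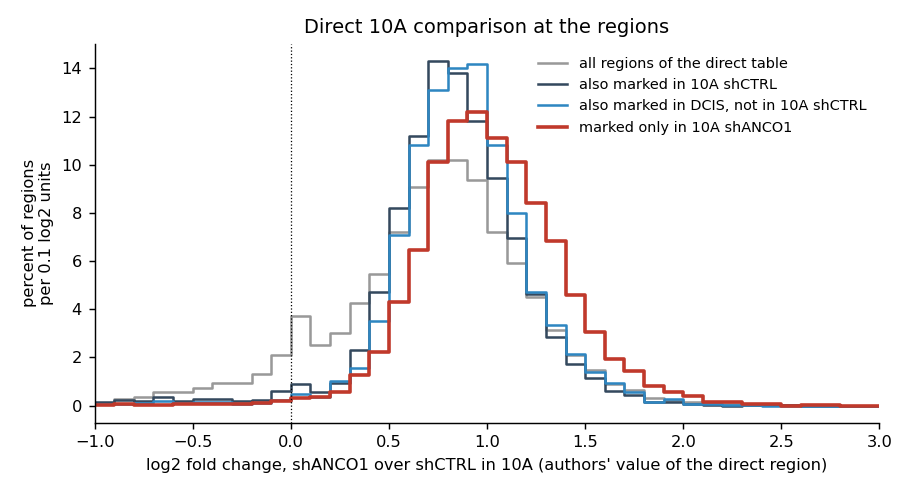
Distribution of the log2 fold change of shANCO1 over shCTRL in 10A at regions grouped by where they were also marked, as percent of regions per 0.1 log2 units on the vertical axis; the grey line is the whole direct table. The red line of knockdown-only regions, with a median of 1.00, lies to the right of the lines of the regions also marked in 10A shCTRL (0.83) and in DCIS only (0.88), and all of them lie mostly above 0.

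Width moved with the call. Among knockdown-only regions, 62.5% of those of 200 bp, 68.0% of those of 300 to 400 bp, 80.1% of those of 500 to 900 bp and 92.6% of the 856 of 1000 bp or more were up. In the other 10A shANCO1 regions the shares at the same widths were 45.3%, 45.7%, 59.3% and 80.1%. The knockdown-only regions were up more often at every width, by 12.5 to 22.3 percentage points. The rule required absence from 10A shCTRL, the control of this comparison, so the difference describes the regions and tests nothing. Their median log2 fold change rose less with width, from 0.95 at 200 bp to 1.13 at 1000 bp or more, against 0.79 and 0.88 in the others. Distance to the nearest region of another table made little difference, with 69.3% up within 1 kb and 72.0% up beyond 50 kb.

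**Figure D2:**
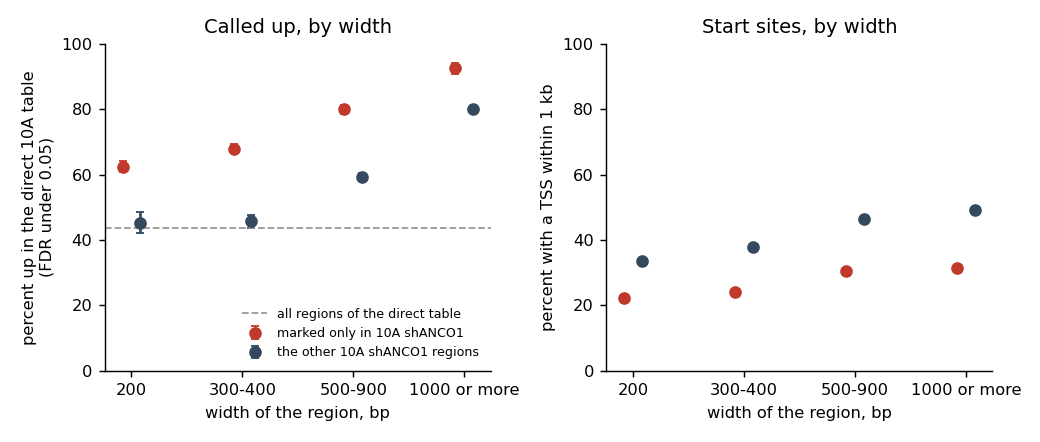
Left, percent of regions called up in the direct 10A table by width in bp (points, with 95% Wilson bars), for knockdown-only regions (red) and the other 10A shANCO1 regions (dark), with the share over the whole direct table (dashed, 43.6%); right, percent with a TSS within 1 kb at the same widths. Red points lie above dark ones on the left, from 62.5% to 92.6%, and below them on the right, from 22.4% to 31.4%.

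In DCIS, where the rule required absence from both tables against input, 6301 of the 11621 regions overlapped a region of the direct shANCO1 against shCTRL table and 5320 did not. Of the 6301, 1945 (30.9%) were up and 87 (1.38%) down, against 23.6% up and 4.86% down over all 44790 regions of that table and 30.6% up in the other 10A shANCO1 regions. The share up in DCIS was therefore close to that of the other regions. Among the 6301, 1464 were up in both lines, 2972 were up in 10A alone, 68 changed in opposite directions (up in 10A, down in DCIS), 479 were up in DCIS alone and 1295 were called in neither. Both direct tables have their own controls, and the difference between the lines was not tested.

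The regions with the lowest FDRs over input, from 7.97e-22 to 2.54e-20 among those named here, lay in genes and outside them. A region within BACH1, a heme-regulated bZIP repressor, had the highest value over input of all, 8.06, and was up by 0.88 (log2, FDR of 0.00618). A region within the long noncoding RNA CASC15 stood at 7.98 over input and was up by 1.22. The region 22 bp from the TSS of RSF1, a subunit of a chromatin remodelling complex, stood at 4.22 over input and was up by 0.99. Others were at LRRC29 and MIR328, at the TSS of ITPRIPL2, within MAP6, which stabilises microtubules, and on chromosome 12 over 1 Mb from any protein-coding TSS. Each of those named was up in 10A, and the one at LRRC29 was also up in DCIS (2.48).

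The 5 widest knockdown-only regions ran from 2600 to 3400 bp and were all up in 10A, by 0.88 to 1.56. The widest lay at the TSS of ANTXR2, a cell-surface receptor that binds collagen and laminin (chromosome 4, 80070501 to 80073900), where 43 of 48 direct windows were up and the log2 fold change was 1.15. The others lay within TMEM245, within CDH23 at 1520 bp from the TSS of the immune checkpoint gene VSIR, at the TSS of RANBP9, and outside protein-coding genes on chromosome 7. The VSIR and chromosome 7 regions were also up in DCIS, by 1.91 and 1.46.

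The largest direct gains in 10A among regions of at least 5 windows were outside promoters. A region on chromosome 4, more than 1.5 Mb from any protein-coding TSS or region of another table, was up by 2.75 (FDR of 4.95e-07). A pair of regions of 1300 bp, between 4.9 and 6.8 kb from the TSS of the neutrophil chemokine CXCL3, shared a direct region that was up by 2.73, with all 31 windows up. One of the pair had a DCIS region, up by 1.59. A region in an intron of DNER, a Notch-pathway ligand, was up by 2.43 (FDR of 6.35e-11), and one in a region of chromosome 8 without protein-coding genes by 2.44. Counting regions of any width, a 300-bp region in an intron of ANO4 had the largest gain, 3.76, on 2 windows. Among regions of at least 5 windows, the smallest gains that passed lay at ANXA13 (0.52), NHP2 (0.58), RBMS1 (0.58), VAV2 (0.59) and CEP43 (0.59).

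The 5 knockdown-only regions called down in 10A were all of 500 bp or less, with 1 to 4 windows over input. They lay in PARP10 (-1.33, FDR of 0.0337), UNC5B (-1.24), a netrin receptor gene, BEST3 (-1.07), and 2 places outside protein-coding genes on chromosome 2 (-1.12 and -0.94). Those at PARP10 and near HNRNPA3, were up in DCIS, by 1.77 and 1.63. Of the 3 knockdown-only regions without a region in the direct table, one lay outside genes on chromosome 12, at 6.73 over input, and one lay 8389 bp from the TSS of CXCL3, at 6.70.

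In DCIS the largest gain at knockdown-only regions of at least 5 windows was in ITGB1, the beta subunit shared by collagen, laminin and fibronectin receptors, at 5.35 (FDR of 2.56e-10), and the same region was up by 1.12 in 10A. Its nearest region of another table was 301 bp away. A region outside genes on chromosome 9 was up by 5.14 in DCIS and 1.39 in 10A. A region 762 bp from the TSS of NEGR1, a neuronal adhesion gene, was up by 4.51 in DCIS and not called in 10A (0.63, FDR of 0.0601). The largest losses in DCIS among regions of this size were in SH3PXD2B (-2.76), a podosome scaffold, at the TSS of TBX2 (-2.01), a T-box repressor that counters senescence, and at the TSS of MARK4 (-1.86), a microtubule-affinity kinase. Each of these 3 was up in 10A, by 0.90, 0.81 and 1.06. Over knockdown-only regions of any width, the DCIS values ran from -3.34 to 7.22.

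Promoters were fewer among the knockdown-only regions. A TSS of a protein-coding gene lay within 1 kb of 26.0% (25.2 to 26.8%), against 45.9% of the other 10A shANCO1 regions, and the difference was present at every width. Introns held 38.1% against 24.3%, and places outside protein-coding genes held 32.1% against 26.1%. Median GC content over 500 bp was 44%, against 49.2%. In the authors' gene columns, 9241 regions overlapped a gene (7197 different symbols), 6260 had a gene to the left, 6188 one to the right, and 1881 (16.2%) had none in any column. Genes named for overlap with a knockdown-only region and with no other 10A shANCO1 region numbered 2772. Regions at a TSS and outside it were called up in 10A about equally often, 72.6% at a TSS, 71.0% in introns and 71.5% outside genes.

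Chromosomes differed in the share of 10A shANCO1 regions that were knockdown-only. It was lowest on chromosome 19, 30.6% (27.9 to 33.5%), and chromosome 17, 33.2%. It was highest on chromosome 4, 47.7% (45.1 to 50.3%), and chromosome X, 56.8% (52.4 to 61%, 289 of 509). On chromosome 19, 59.7% of the knockdown-only regions had a TSS within 1 kb, against 21.5% on chromosome 4 and 41.2% on X. The share up in the direct 10A table ran from 61.5% on chromosome 18 to 77.0% on chromosome 20, so chromosome X, at 73.4%, did not stand out there.

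A set of 637 knockdown-only regions (5.48%) stood at a log2 fold change over input of 6 or more. Their median GC content was 31.8%, 5.18% had a TSS within 1 kb, and 23.5% overlapped a region of the direct DCIS table, against 54.2% of all knockdown-only regions. In the direct 10A comparison 60.6% of them were up, with a median log2 fold change of 0.98. At values over input under 2.5 this median was 0.97, and at 5 to under 6 it was 1.09, with 74.9% up. The highest enrichment over input thus did not go with the largest direct gain. GC content moved with the value over input across all knockdown-only regions, from a median of 55.2% at values under 2.5 to 31.8% at 6 or more, and its part in the result was not tested.

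Motif content depended on the stretch searched. In the 500 bp at the middle, an AP-1 match occurred in 12.0% of knockdown-only regions (11.4 to 12.6%) and 12.8% of the others. In 200 bp the shares were 4.15% and 5.49%, and in 1000 bp they were 35.7% and 28.0%. Without the regions that had a TSS within 1 kb, the shares were 14.7% and 19.0% in 500 bp and 43.9% and 41.9% in 1000 bp. The distance of the match from the middle was examined after these values had been seen. Among the 8599 knockdown-only regions without a TSS within 1 kb, the share with a match was 5.02% in the first 100 bp from the middle, rose to 16.2% at 300 to 400 bp, and was 4.42% at 700 to 800 bp. In the 7000 such regions also marked in 10A shCTRL it was 9.34% near the middle and 11.3% at 300 to 400 bp. In the 2187 also marked in DCIS only it was 5.85% and 14.7%, so the shape was not particular to the knockdown-only regions. In the 948 knockdown-only regions of 800 bp or more the highest share, 18.8%, was in the first 100 bp. The chromosome 6 sequence above was picked for a match there and is an example only. At a TSS the knockdown-only regions held few matches at any distance, 1.89% near the middle and 3.71% at 300 to 400 bp.

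**Figure D3:**
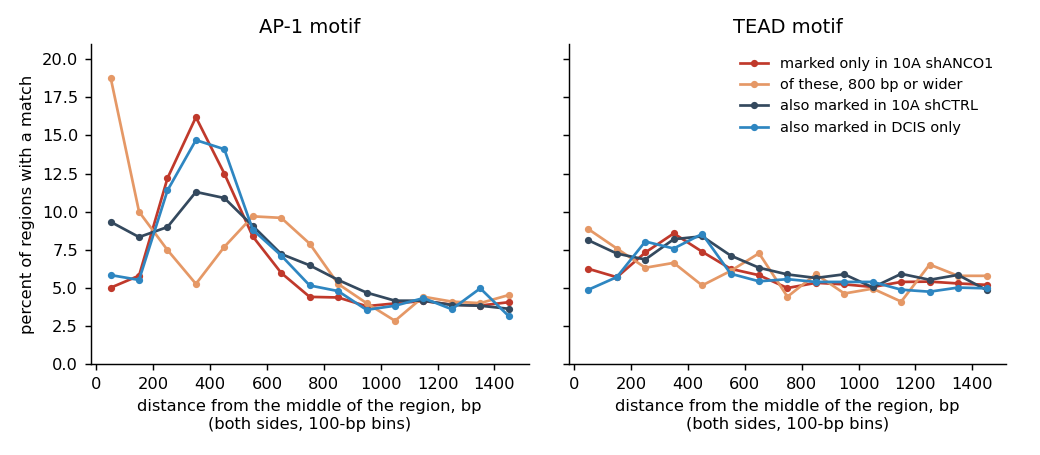
Percent of regions without a TSS within 1 kb that held an AP-1 (left) or TEAD (right) match, by distance from the middle of the region in bp, in 100-bp bins counted on both sides. The AP-1 line of knockdown-only regions (red) has its peak of 16.2% at 300 to 400 bp, and their wide regions (orange) have theirs, 18.8%, at the middle.

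Gaps between neighbouring regions were searched as well, here without leaving out regions at a TSS. Of 870 gaps of 300 to 400 bp with a knockdown-only region on each side, 301 (34.6%, 31.5 to 37.8%) held an AP-1 match. At stretches of the same length centred on the region to the left of each gap, 5.98% did. Gaps between regions that were both not knockdown-only held a match in 25% (23.1 to 27%). Those regions more often had a TSS within 1 kb (45.9%, against 26.0% of knockdown-only regions). The part of this in the difference was not tested. TEAD matches showed a smaller difference, 12.5% in the gaps and 8.05% in the left regions, and 13.2% in the gaps between other regions. The NFkB consensus was in 4.6% and 4.02%, STAT3 (TTCCNGGAA) in 1.49% and 1.15%, the p53 half-site in 10.6% and 7.47% and the CTCF core (AGGGGGC or AGGTGGC) in 11.4% and 13.2%. The CYP27C1 sequence above is an example of these gaps.

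Knockdown-only regions fell in or within 5 kb upstream of 5514 of 19962 protein-coding genes (27.6%). They lay within 1 kb of a TSS for 2970 genes (14.9%). For 1743 of these no region of the other 3 tables lay at any TSS of the gene, so its promoter was marked in 10A shANCO1 alone. For 636 the 10A shCTRL table had a region at a TSS of the same gene too, which could be another TSS. For 591 a DCIS table had one and 10A shCTRL did not. Gene length matters for such counts: the share of genes with a knockdown-only region ran from 8.91% in the shortest decile of genes to 54.6% in the longest.

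The genes with most knockdown-only regions were long. NAV2, a cytoskeletal regulator of 771 kb, held 17, of which 10 were up in 10A, and RDX, the membrane-cytoskeleton linker radixin, held 16, all 16 up (0.72 to 2.21). RAD51B, a homologous recombination gene, held 15, and MAP4K4, a kinase upstream of JNK, held 14, of which 13 were up. FOXP1, a forkhead repressor, held 14, which also fell in an overlapping gene model, and RUNX1, a transcription factor of breast epithelium, held 13. SH3KBP1, an adaptor for EGF receptor endocytosis, held 12 next to 2 other 10A shANCO1 regions, and all 12 were up (1.05 to 1.87). ERGIC1 (12 of 12 up), RBMS1 (11 of 12 up) and PTPRM (9 of 12 up) held as many. GLI3, with 11, had 3 up, so a high number of regions did not always go with gains that passed the test.

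Runs of neighbouring 10A shANCO1 regions that were all knockdown-only, less than 50 kb apart, numbered 7984. Of these, 5633 were single regions, 793 held 3 or more, and 119 held 5 or more, and 24.7% of the knockdown-only regions lay in runs of at least 3. The longest run, of 9 regions over 54.8 kb (chromosome 2, 101973401 to 102028200), covered IL1R2, the decoy receptor of interleukin 1. All 9 were up in 10A, by 0.87 to 2.21, on 4 different direct regions, and none had a DCIS region. Next came 5 runs of 8. One, over 129 kb, held the genes IL1RL2, IL1RL1 (the IL33 receptor) and IL18R1, and all 8 of its regions were up (0.81 to 1.60). One at AREG, the EGF receptor ligand amphiregulin, spanned 87.1 kb and began 6199 bp past its TSS, with all 8 up (1.03 to 2.05). In DOCK5, a RAC activator, all 8 were up in 10A and the 6 with a DCIS region were up there as well. A run without genes on chromosome 20 was up at all 8 (1.25 to 1.47). In FNDC3B 4 of 8 were up, with values of 0.64 to 1.32. No region of the other 3 tables lay inside any of these 6 runs.

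**Figure D4:**
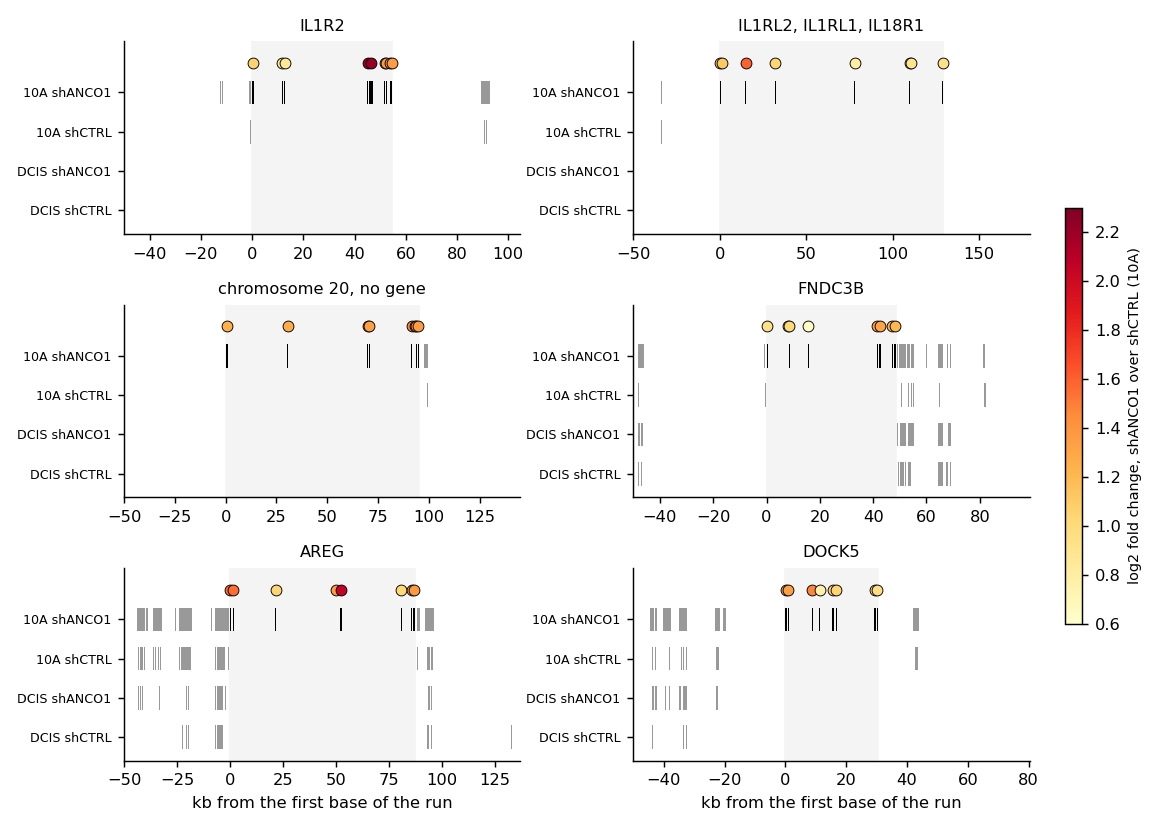
The 6 longest runs of knockdown-only regions, drawn to scale in kb from the first base of each run (grey band), with the regions of the 4 tables against input as bars. Black bars are the run, grey bars other regions, and circles give the log2 fold change of the direct 10A table. In each panel the band holds black bars and circles and no bar of the 10A shCTRL or DCIS tables.

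Looking at whole clusters was prompted by these runs, so high counts around the IL1 receptor genes and AREG follow from the choice. Over all 10A shANCO1 regions 40.6% were knockdown-only, and 71.8% of knockdown-only regions with a direct region were up. In 661 kb around the interleukin 1 receptor genes from IL1R2 to IL18RAP, 24 of 28 regions of 10A shANCO1 were knockdown-only and 23 of the 24 were up (median 1.05). This stretch had 5 regions in 10A shCTRL and 0 in either DCIS table. In 559 kb around the CXC chemokine genes of chromosome 4, 27 of 44 were knockdown-only and 25 were up (median 1.46). There, 10A shCTRL had 18 regions, DCIS shANCO1 30 and DCIS shCTRL 22. In 686 kb around EREG, AREG, EPGN and BTC, 29 of 51 were knockdown-only and 27 were up (median 1.17). Here 10A shCTRL had 27 regions, DCIS shANCO1 25 and DCIS shCTRL 22.

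Gene lists are given beside the share of all protein-coding genes, 27.6% with a knockdown-only region and 14.9% with one at a TSS, and beside the share in the length deciles nearest to the median gene of the list. Counts of regions up in 10A are to be read beside the 71.8% up and the 5 of 11618 down among all knockdown-only regions. The 10A log2 fold changes of single genes are to be read beside the medians of 1.00 at all knockdown-only regions and 0.76 over the whole direct table. The lists also differed in how many genes had any TSS marked in 10A shANCO1. This was 27 of 32 for IL1, NFkB and inflammation, 29 of 29 for DNA repair and mitosis and 8 of 32 for epidermal differentiation, against 47.5% of all genes. Its part in the shares was not tested. A gene with a knockdown-only region at a TSS could also have a 10A shCTRL region at a TSS. Of those named below, this held for SMAD3, PXN, FOXO3, TAOK3, ANKRD12, CHEK2, HMGA1, DUSP5, JUNB, KRT80 and NIPBL, so their promoters were not marked by knockdown alone. Among 32 genes of IL1, NFkB and inflammation, 22 (68.8%) had one and 13 (40.6%) had one at a TSS. The median gene of this list was 33.0 kb long, and in the decile of all genes at that length 27.5% had one. Of the 37 regions at these genes 33 were up in 10A (89.2%). Those with the lowest FDR at a TSS were TNFAIP3, the ubiquitin-editing brake on NFkB (1.21, FDR of 3.08e-05), RELA, the p65 subunit of NFkB (0.93), and TRAF3, an adaptor that restrains the noncanonical branch (1.08). At RELB and NFKB2, subunits of that branch, the values were 0.36 and 0.80. IL1B had 3 regions in the gene or upstream, none at its TSS, and the one with the lowest FDR stood at 1.91. Promoters marked in 10A shANCO1 alone were those of IL1R1, TRAF3, NFKB2, RELA, RELB, TNFAIP3 and NLRP3.

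Among 30 genes of TGF-beta signalling and epithelial-mesenchymal transition, 21 (70%) had a knockdown-only region and 15 (50%) had one at a TSS. Of their 45 regions 37 were up (82.2%). The median gene of this list was 78.7 kb long, and the deciles of all genes at 71.8 and 119 kb held 34.5% and 46.4% with a region and 17.8% and 21.9% with one at a TSS. ZEB1, a repressor of E-cadherin, was up by 1.46 at its TSS (FDR of 5.33e-05), SMAD3, the receptor-regulated transducer, by 1.09, and TGFB3, a ligand, by 1.01. In 9 of the 30 genes, among them TGFB1, TGFBR1, VIM and FN1, the promoter was marked in 10A shANCO1 alone. BMP2, one of the 9, stood at -0.32.

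Among 22 genes of EGF receptor ligands, receptors and their partners, 15 (68.2%) had a knockdown-only region and 7 had one at a TSS. The 22 also included the urokinase gene PLAU and its receptor gene PLAUR, and each of these had one at a TSS. The median gene was 94.3 kb long, between the same deciles (34.5% and 46.4%). Of 36 regions 25 were up (69.4%), near the 71.8% of all knockdown-only regions. PLAU, the urokinase protease, was up by 1.34 in 10A and by 1.31 in DCIS, CBL, the ubiquitin ligase of the receptor, by 0.96 in 10A, and SOS1, the RAS exchange factor, by 0.82. None of the ligands AREG, EREG, TGFA, EPGN and NRG1 had one at a TSS; each had 1 to 7 in the gene or upstream.

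Among 34 genes of focal adhesions and integrins, 21 (61.8%) had one but 5 (14.7%) had one at a TSS, close to the share of all genes. At the length of its median gene, 88 kb, the deciles on either side held 34.5% and 46.4%. Of 66 regions 52 were up (78.8%, against 71.8% of all). ITGB5, an integrin beta subunit that pairs with alpha V, was up by 1.20 (FDR of 4.06e-06), ITGA1, a collagen receptor subunit, by 0.79, and PXN, the adaptor paxillin, by 1.11. Among 32 genes of PI3K-AKT and mTOR signalling, 15 (46.9%) had one and 6 (18.8%) at a TSS. The median gene was 96.1 kb long, and the 46.9% was close to the 46.4% of all genes in the decile at 119 kb. FOXO3 and FOXO1, transcription factors that AKT inhibits, were up by 1.10 and 1.48, and IGF1R, the receptor of insulin-like growth factor 1, by 1.08 in 10A and 1.41 in DCIS.

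Among 34 Hippo pathway genes, 19 (55.9%) had one and 9 (26.5%) had one at a TSS, and 35 of their 54 regions were up (64.8%, below the 71.8% of all knockdown-only regions). The median gene was 91.8 kb long, again between the deciles with 34.5% and 46.4%. MOB1B, an activator of the LATS kinases, was up by 0.87 and STK3, an upstream kinase, by 1.00, while TAOK3 was not called (0.51, FDR of 0.713). CCN2, a classic YAP1 target, stood at 1.51. Among 30 ANCO1 partners and histone acetylation genes, 16 (53.3%) had one and 9 (30%) at a TSS, with a median gene of 82.9 kb between the same deciles. SIRT1, a deacetylase, was up by 1.30, and ANKRD12, the paralogue of ANCO1, was not called (0.70, FDR of 0.0709).

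ANKRD11 itself held 5 knockdown-only regions on chromosome 16. A pair inside the gene, at 89315701 to 89316100 and 89319701 to 89320300, was up in 10A (1.28 and 0.98) and in DCIS (1.73 and 1.31). The second of the pair lay 56 bp from an annotated TSS of ANKRD11. The 3 at the 5' end, between 89488801 and 89491600, were called in neither line, with 10A values of 0.66 (for 2 regions that share a direct region) and 0.89. These 3 were assigned to SPG7 as well, and the last was nearest to the TSS of SPG7, at 284 bp. H3K27Ac does not measure the knockdown, and RNA was not analysed here.

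Among 30 senescence and cell cycle arrest genes, 15 (50%) had one and 6 (20%) had one at a TSS. The median gene was 16.5 kb long, and the deciles at 15.1 and 22.9 kb held 20.9% and 24%. The region at CXCL8, the gene of interleukin 8, was 2000 bp wide, stood at 7.69 over input and was up by 1.36 in 10A on 27 of 28 windows (FDR of 0.000331), and was not called in DCIS (1.36, FDR of 0.178). CHEK2, a DNA damage kinase, was up by 1.41 and HMGA1, an architectural chromatin protein, by 1.17. Among 30 genes of AP-1 and MAPK feedback, 15 (50%) had one and 5 (16.7%) at a TSS, and with a median gene of 13.7 kb the deciles at 9.76 and 15.1 kb held 16.5% and 20.9%. MAFF was up by 1.30, DUSP5, a phosphatase of ERK, by 0.87, and JUNB by 1.55 (FDR of 0.000414). In 10A shCTRL a TSS of DUSP5 and of JUNB was marked too, and the DUSP5 region touched a region of another table.

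Epidermal differentiation was the list with the fewest. Of 32 genes, 4 (12.5%) had a knockdown-only region: KRT80, up by 1.48, GRHL3, not called (0.86, FDR of 0.0734), IVL, and PPL. Its median gene was 5.88 kb long, and 12.6% of all genes in the decile at 5.41 kb had one. A TSS was marked in 10A shANCO1 at 8 of the 32 genes, against 47.5% of all genes. IVL, which encodes the cornified envelope protein involucrin, had 2 within the gene or upstream, and the one with the lowest FDR was up by 1.41 in 10A and 3.52 in DCIS. Among 29 genes of DNA repair and mitosis, 11 (37.9%) had one, near the 34.5% in the decile at 71.8 kb (30.4% at 48.1 kb, median gene 60.1 kb). Of their 12 regions 11 were up (91.7%, against 71.8% of all). FANCA, of the Fanconi anaemia core complex, was up by 1.46 and NIPBL, the cohesin loader, by 0.71, while CENPE, a kinetochore motor, was not called (0.59, FDR of 0.0733). The lists were drawn up with earlier results of these data known and get no test.

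**Figure D5:**
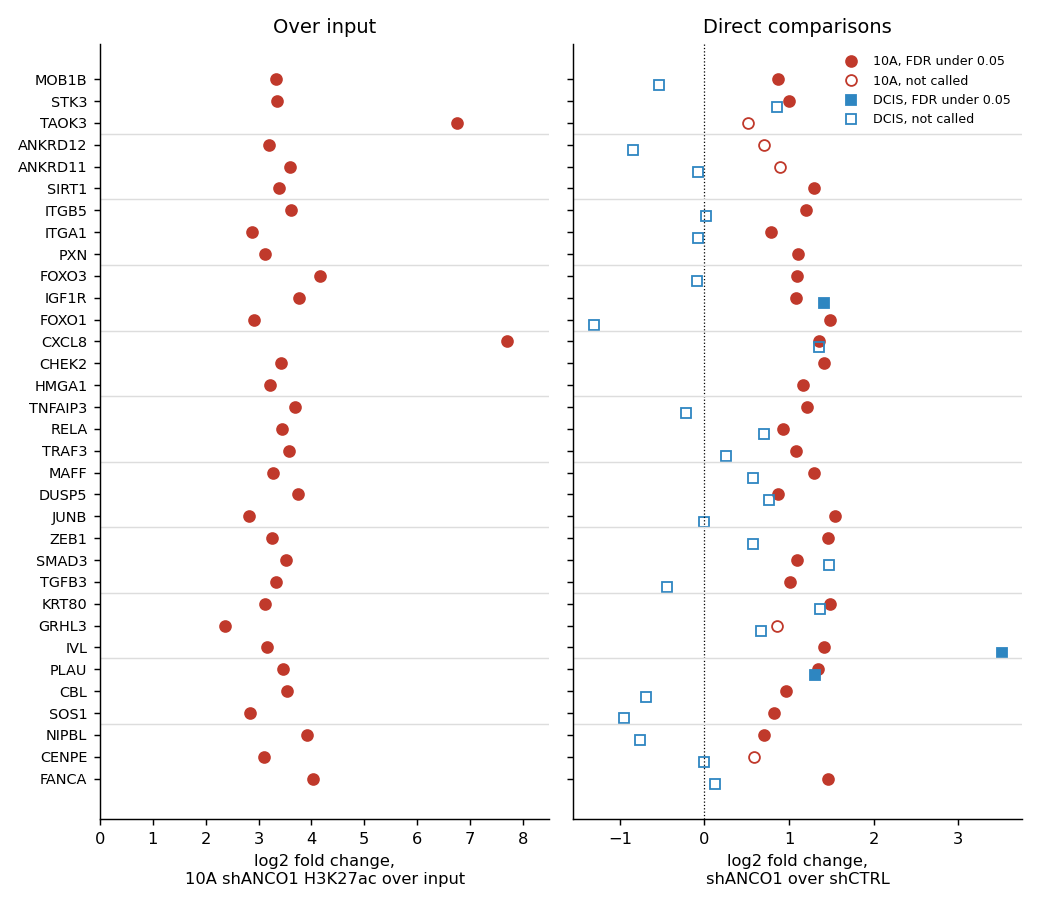
For up to 3 genes of each list, in blocks in the order Hippo, ANCO1 partners, focal adhesion, PI3K-AKT, senescence, IL1 and NFkB, AP-1, TGF-beta, epidermal differentiation, EGF receptor and DNA repair, the knockdown-only region with the lowest FDR: left, log2 fold change over input in 10A shANCO1; right, shANCO1 over shCTRL in 10A (circles) and DCIS (squares), filled where FDR was under 0.05. The 10A circles lie between 0.51 and 1.55, all above 0, while the DCIS squares spread from -1.31 to 3.52. The rule required absence from 10A shCTRL, and 99.2% of all knockdown-only regions with a direct 10A region had a positive value there. In DCIS, where it required absence from both conditions, 74.9% of those with a direct region did. The contrast between the lines thus follows from the choice of regions.

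The labelled cell type was checked at promoters. In 10A shANCO1, 8 of 10 basal mammary epithelial markers had a marked TSS, among them KRT5, TP63, EGFR and LAMA3, as had 6 of 10 in 10A shCTRL. Of 10 luminal markers 4 were marked (2 in shCTRL), of 8 fibroblast markers 4 (1 in shCTRL), of 6 immune markers 1 and of 6 neuronal markers 1 (0 in shCTRL for both). Over all protein-coding genes, 47.5% had a marked TSS in 10A shANCO1 and 25.9% in 10A shCTRL. The luminal and fibroblast counts were near these shares and say nothing about cell identity. Knockdown-only regions lay at the TSS of DCN, ZEB1 and ZEB2 of the fibroblast list, CD68 of the immune list and SYT1 of the neuronal list, and of EGFR of the basal list. Their part in the results was not tested. In bulk chromatin, more cells with a mark and more of the mark per cell cannot be told apart.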

How the data were processed

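H3K27Ac ChIP-seq and input libraries of 8 groups of 3 were processed by the authors. Reads were aligned to GRCh38 with BWA, deduplicated with SAMtools and counted in windows that csaw merged to regions, and genes were added from an annotation. In the 6 tables deposited, each region has counts of tested windows and of windows up or down, the log2 fold change of a representative window, as deposited by the authors, and p-value and FDR columns computed by the authors with csaw over the whole table. The tables against input list detected regions only. A few rows there were not significant: 2 regions of DCIS shCTRL had an FDR of 0.05 or more. All 6 were used without rescaling.

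Regions of 10A shANCO1 overlapping (1 bp) no region of the other 3 tables against input were taken, and each was matched to the direct region sharing most bases, called at FDR under 0.05. TSSs, exons and genes came from GENCODE 44, promoters from RefSeq, and motifs were exact matches in hg38. Distances are from last base to first base, so touching regions are 1 bp apart. Python 3.11.15, pandas 2.3.3, pysam 0.24.0 and scipy 1.17.1 were used, and scripts were tested on simulated data. Named regions were those with the lowest FDR (8), greatest width (5), highest and lowest direct changes (5 each in 10A, 3 each in DCIS), the 10 genes with most regions, the 3 longest runs with ties, and up to 3 genes per list. Other list genes, GLI3, ANO4 and the whole clusters were named after their values were seen. A few regions that the rule names are not reported here. No test was run, because the deposited rows hold no value for a library and the rule used the same libraries. Wilson intervals (95%) cover counting over regions only. The regions, motifs and lists were chosen with earlier results of these data known.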

Additional observations from a re-analysis of the deposited data

How the results depend on the processing

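No paired analysis was possible because the deposited tables give 1 value per region for a whole group, and no library could be left out for the same reason. Of 36 alternatives, 16 kept counts within 1.5 times of the reported one or shares within its interval, and 20 did not, as follows. The 11621 knockdown-only regions became 7151 when none of the other tables could have a region within 5 kb, 6553 at an FDR under 1e-10, 2550 with at least 5 windows and, chosen after seeing the data, 856 of at least 1000 bp. The 8340 up in 10A became 327 at a log2 fold change at least 1 above the median of the direct table and 2221 among regions of at least 5 windows. The share at a TSS (26.0%) was 31.2% within 2.5 kb, 6.62% with the TSS inside, 48.2% by the authors' promoter code, 23.2% for regions without another within 1 kb and 32.7% for those of at least 5 windows. The share in the other regions fell from 45.9% to 39.5% when weighted to the widths of the knockdown-only regions. The AP-1 share (12.0%) was 4.15% in 200 bp, 35.7% in 1000 bp, 13.0% away from other regions by 1 kb and 14.7% without a TSS, and, chosen after seeing the data, 16.2% at 300 to 400 bp from the middle and 34.6% in the gaps. Among other regions it was 19.0% without a TSS, against 12.8%. Genes numbered 2970 at a TSS, against 5514. Read depth per library is unknown, so absence from a table cannot be told apart from a shallower library.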
